A study of Rattus norvegicus with 48 samples.

Results

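Livers of male Fischer (F344) rats were compared after 1 day on a diet with 1000 ppm PB and after 1 day on the same diet without it. PB is phenobarbital, given here as its sodium salt. The comparison holds 6 of the 48 arrays of the series: animals 61, 63 and 65 at 1000 ppm and animals 1, 3 and 5 at 0 ppm. The rats were 9 weeks old, were fed ad lib on CT1 diet, and were otherwise untreated. RNA came from the left lateral lobe, and each animal was measured on 1 Affymetrix rat genome array, which holds several short probes (a probeset) for each transcript. The remaining arrays come from rats at 50 or 500 ppm, or from days 3, 7 and 14, and were used for the common estimate of the spread and for comparison. Arrays were placed by animal number. For 7 arrays of the series the title gives another group than the animal number, and the values without those arrays are given with the limits at the end.

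PB is the classical inducer of drug metabolism in the liver. It acts largely through the constitutive androstane receptor (CAR, gene Nr1i3), a nuclear receptor of hepatocytes that moves to the nucleus on exposure and switches on genes of the Cyp2b, Ugt and Gst families. In rodents the drug also causes a short wave of hepatocyte division and a gain in liver weight, and it promotes liver tumours on long feeding without damaging DNA.

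The signals are MAS 5.0 values on a linear scale, with the mean of each array set to 500 by the authors. The 6 arrays listed 14094 to 15660 signals each, and the other probesets had no value. Median signals ran from 446 to 526. Log2 signals of arrays in 1 group correlated at 0.9804 to 0.9852, and those of arrays in different groups at 0.9754 to 0.9798. The tissue label was borne out by the hepatocyte markers, among them albumin (Alb), with a mean control signal of 49148. The sample descriptions open with 1 of 6 number codes. These were read here as 6 processing runs, although the labels do not name a run. No run held animals of both groups. Control animals 3 and 5 were in run 1 and animal 1 in run 6, whereas animals 63 and 65 were in run 2 and animal 61 in run 3. Values within a run therefore do not exist for this comparison, and run and dose can be set apart only through the other arrays of the series.

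Of 13940 probesets with at least 2 listed signals in each group, 257 were higher (1.84%) and 123 were lower (0.882%) at 1000 ppm, at a p adjusted for all probesets under 0.05 in limma. Of these 380, 377 had groups that did not overlap, against 20.7% of all probesets tested. The 380 were chosen by p from the same values, so this adds no support to the calls. Both directions together made 2.73% of the probesets. A change of at least 1.5-fold was seen in 106 of the higher and 69 of the lower probesets. Quantile normalization gave 342 higher and 56 lower, and scaling each array to its median gave 306 higher and 98 lower. Counted as genes, with 1 probeset each, 201 of 8420 were higher (2.39%) and 64 were lower (0.76%), together 3.15%, and 20.8% of all genes had groups that did not overlap. The median log2 change of all probesets tested was -0.03 on the deposited scale and 0.06 after quantile normalization. With the run included as a block, 6 of 13068 probesets passed (0.0459%, or 0.0373% of genes): those of Cyp2b2 and Cyp2b1, Ugt2b1, Ephx1 and Cyp3a23-3a1, all higher, and 2 without a gene name, both lower. The 6 arrays fitted alone gave 5 of 13940, all higher: the Cyp2b probeset, Ugt2b1, Ces2c, Ephx1 and Mmgt1, a membrane magnesium transporter that was named after its values were seen (1930.0, 2214 and 1852 in controls against 4454, 4388 and 4634). Leaving out control animal 1 gave 236 called probesets, leaving out control animal 5 gave 184, leaving out treated animal 63 gave 184, and leaving out treated animal 65 gave 201.

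The largest rises were in enzymes that modify and clear foreign compounds. The probeset shared by Cyp2b2 and Cyp2b1, the cytochromes P450 by which PB induction is classically measured, had signals of 5089.6, 8267 and 5549 in the controls and of 37644, 35808 and 43153 at 1000 ppm. The groups were far apart, and the 2 genes cannot be told apart on this probeset. Its log2 change was 2.65 ± 0.14 (SE, n = 3 against 3; adjusted p = 3.94e-16), or 6.29-fold. Ugt2b1, a UDP-glucuronosyltransferase that attaches glucuronic acid, went from 5720.4, 6592 and 4192 to 20849, 23072 and 28738. That was a log2 change of 2.15 ± 0.15 (adjusted p = 2.38e-12), again without overlap. Both kept their call with the run as a block, at 3.11 ± 0.27 for the Cyp2b probeset and 2.57 ± 0.30 for Ugt2b1.

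Phase I enzymes other than P450 followed. Aldh1a1, which oxidizes retinal and other aldehydes, was at 1541, 1419.6 and 2117 in the controls and at 5177, 8526 and 8579 in treated rats (log2 change 2.12 ± 0.34, adjusted p = 0.000309). Ces2c, a carboxylesterase that splits esters and amides, rose from 509, 612 and 567 to 1586, 1786 and 2285 (1.73 ± 0.20). Ephx1, the microsomal epoxide hydrolase, was the steadiest of this group, with 11472, 12679.9 and 11847 against 24844, 28501 and 29239 (1.20 ± 0.11, adjusted p = 1.11e-09). In all 3 genes the groups stood apart, and treated animal 61 had the lowest of the treated signals. Nqo1, a quinone reductase, was 1.76-fold higher, and Akr7a3, an aflatoxin aldehyde reductase, was 2.09-fold higher, although its treated signals were uneven at 5175, 10902 and 9145. Of 38 phase I genes tested, these 5 rose and none fell, with a median log2 change of 0.04, where 2.39% of all genes were higher. Leaving out any 1 array left the calls of Aldh1a1, Ces2c and Ephx1 in place, while Nqo1 was lost without animal 63 and Akr7a3 without any of 5 arrays (63, 65, 1, 3 and 5).

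Among the P450 enzymes and their electron donors, 3 of 30 genes tested rose and 1 fell (median 0.06), against 2.39% and 0.76% of all genes. Cyp3a9 rose from 4131, 5647 and 3941 to 14057, 10508 and 11757 (log2 change 1.41 ± 0.22). Cyp3a23-3a1 was already high in controls, at 21279.6, 21919 and 23523, and reached 34967, 32288 and 36294. Its change of 0.63 ± 0.11 also passed with the run as a block (1.10 ± 0.21, limma, adjusted p = 0.0297). Por, the reductase that hands electrons to every microsomal P450, was 2.25-fold higher, with controls within 1425 to 1570.1 and treated rats within 2974 to 3803. Cyp2j3, an epoxygenase of arachidonic acid, moved the other way, from 4261, 4906 and 3974 down to 3463, 2949 and 3497 (-0.41 ± 0.10), a call that was lost without animal 63 or without animal 3.

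P450 enzymes need heme, and the first enzyme of heme synthesis, Alas1, had signals of 4102, 6536 and 3649 in the controls and of 15832, 14171 and 15422 at 1000 ppm. The treated animals lay close together, and the change was 3.28-fold (log2 change 1.71 ± 0.31, adjusted p = 0.000921). Fech, which inserts iron in the last step, was 1.37-fold higher, and Blvrb, a biliverdin reductase of heme breakdown, was 1.34-fold higher. These 3 of 24 heme genes rose and none fell, with a median of 0.01, where 2.39% of all genes were higher. Treated signals lay wholly above the controls in 6 of the 24 and wholly below in 0, where 20.8% of all genes had groups apart in either direction. The call of Fech was lost without animal 65, and that of Blvrb without any array but animal 5.

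**Figure D1:**
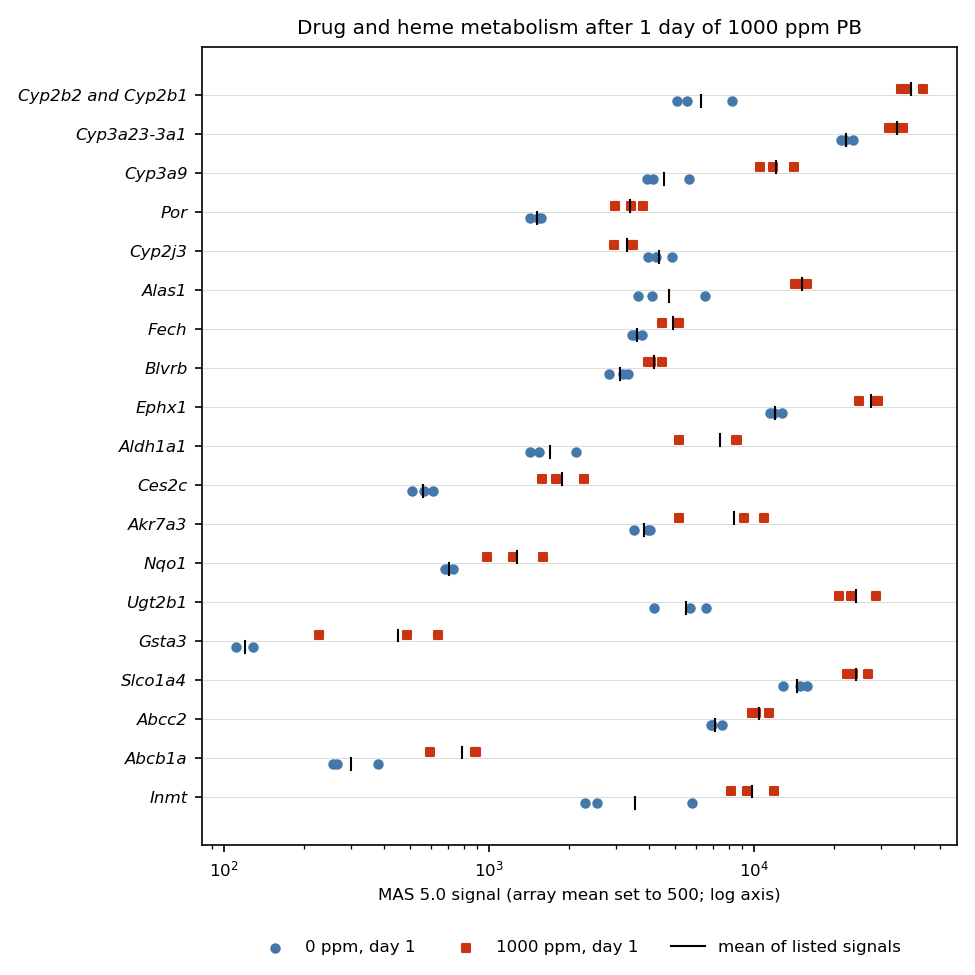
MAS 5.0 signals (log axis) of 19 probesets of drug and heme metabolism, with a circle for each 0 ppm animal, a square for each 1000 ppm animal and a bar for the mean. The 3 squares lie to the right of the circles in each row except Cyp2j3, and Gsta3 has 2 circles because animal 3 had no listed signal.

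In phase II, 7 of 39 conjugating enzymes rose and none fell (median 0.09), where 2.39% of all genes were higher. Besides Ugt2b1, Gsta3, a glutathione transferase subunit, was dim in the controls, with 111 and 128 in animals 1 and 5 and no listed signal in animal 3. It reached 228, 489 and 639 at 1000 ppm (log2 change 1.80 ± 0.47, n = 2 against 3), and the call did not survive the loss of animal 63 or 65. Ugdh, which makes UDP-glucuronic acid, rose 1.36-fold and Ugt2b10 1.34-fold. Gsta4, Gstk1 and Mgst2, further glutathione transferases, rose by 0.38, 0.38 and 0.31 on the log2 scale. Without animal 65 only 1 of the 7 passed, and without animal 5 only 2 did.

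Of 15 drug transporters tested 3 rose, where 2.39% of all genes did. Slco1a4, which takes up organic anions from blood, went from 12833, 14828 and 15766 to 23615, 22334 and 26810.5. Abcc2, which pumps conjugates into bile, went from 6857, 7577 and 6918 to 9819, 10100.0 and 11314, and Abcb1a, the multidrug P-glycoprotein, from 381, 256 and 267 to 598, 890.5 and 883. The first and second kept their calls when any 1 array was left out, whereas Abcb1a kept its call only without animal 61 or without animal 1. Inmt, an indolethylamine methyltransferase, was higher too, at 11866, 8174 and 9378 against 5798, 2554 and 2288 (1.58 ± 0.35), a call lost without animal 5.

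The receptors themselves did not pass the test. Nr1i3 (CAR) had 1015, 836 and 1030.4 in the controls and 656, 875 and 1044 at 1000 ppm, and its sister receptor Nr1i2 (PXR) had 1525, 1447 and 1555 against 1387, 1219.7 and 1459.6. Both pairs of groups overlapped. In the list of nuclear receptors and their partners 1 of 44 genes rose and 1 fell, where 2.39% of all genes were higher and 0.76% lower. The rise was that of the cytosolic chaperone Hsp90ab1, and its call was lost whichever array was left out. The gene that fell was Cebpa, a transcription factor that keeps hepatocytes differentiated and restrains their division. Its controls were at 6794, 6858 and 7068 and its treated animals at 3907, 3362 and 3858, a 1.87-fold drop (log2 change -0.90 ± 0.17, adjusted p = 0.00131). The other 4 probesets of Cebpa changed by -0.42 to -0.90, and 3 of them passed as well.

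Genes of oxidative defence moved in both directions. Txnrd1, the thioredoxin reductase, rose from 2245, 2594 and 2094 to 3366, 3870.1 and 3625, Gsr, the glutathione reductase, was 1.40-fold higher, and Gclc, the first enzyme of glutathione synthesis, was 1.41-fold higher. Gclc was uneven, with 7064 in animal 63 against 4223 and 4515 in the others of its group, and its call was lost without animal 63 and without any of the 3 controls. Oplah, which opens 5-oxoproline in the breakdown of glutathione, fell from 1557, 1469.9 and 1598 to 1174, 1028 and 991. In all, 3 of 33 genes of glutathione metabolism and NRF2 targets rose and 1 fell (median 0.04), against 2.39% and 0.76% of all genes. Without animal 63 or without animal 5 none of the 3 rises passed. Tkt, the transketolase of the pentose phosphate pathway, was the 1 riser among 13 NADPH-supplying enzymes, at 1.52-fold.

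The proteasome stood out among all lists by its count. This barrel-shaped protease degrades proteins tagged with ubiquitin, and it has a core with alpha (Psma) and beta (Psmb) rings and a cap of ATPases (Psmc) and other subunits (Psmd). Of 49 genes tested, 23 rose and none fell, against 2.39% of all genes, and 47 had a change above 0, against 49.4% of all genes. The median log2 change was 0.29, and the changes ran from -0.08 to 0.66. Psma1 went from 3924, 4267 and 3795 to 5889, 7700.4 and 5540.4, and Psmd14, the cap subunit that takes ubiquitin off, from 2732, 2772 and 2695 to 3900.1, 4859 and 4127 (log2 change 0.65 ± 0.10). Usp14, a second ubiquitin-removing enzyme of the cap, rose 1.45-fold. The shifts were small next to those of the drug enzymes but even, and 32 of the 49 had treated signals that lay above all 3 controls, where 20.8% of all genes had groups apart in either direction. The immunoproteasome subunits Psmb8, Psmb9 and Psmb10 had changes of 0.18, 0.13 and 0.12 and did not pass. Psmd9, an assembly chaperone, rose by 0.54 ± 0.10 on the probeset used, while its dimmer probeset, at 207, 247 and 224 against 162, 163 and 227, changed by -0.31 ± 0.23.

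Leaving out any 1 array left 14 to 19 proteasome genes called, the fewest without animal 63. With the run as a block 0 of them passed, with a median change of 0.31, close to the one without it. On day 3, in other animals and against other controls, 17 of the list rose and none fell, where 5.01% of all genes passed, and the medians at 1000 ppm were 0.24 on day 3, 0.19 on day 7 and 0.12 on day 14. Of the partner list for ubiquitin conjugation, 3 of 45 genes rose and none fell, where 2.39% of all genes were higher. They were Vcp (the p97 segregase, which pulls tagged proteins out of complexes) with its cofactors Ufd1 and Nsfl1c. Vcp had 7428, 8169 and 8074 in the controls and 10731, 9548 and 10011 at 1000 ppm. Its call was lost without animal 61 or without animal 1, and a second probeset of Ufd1 changed by 0.03.

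**Figure D2:**
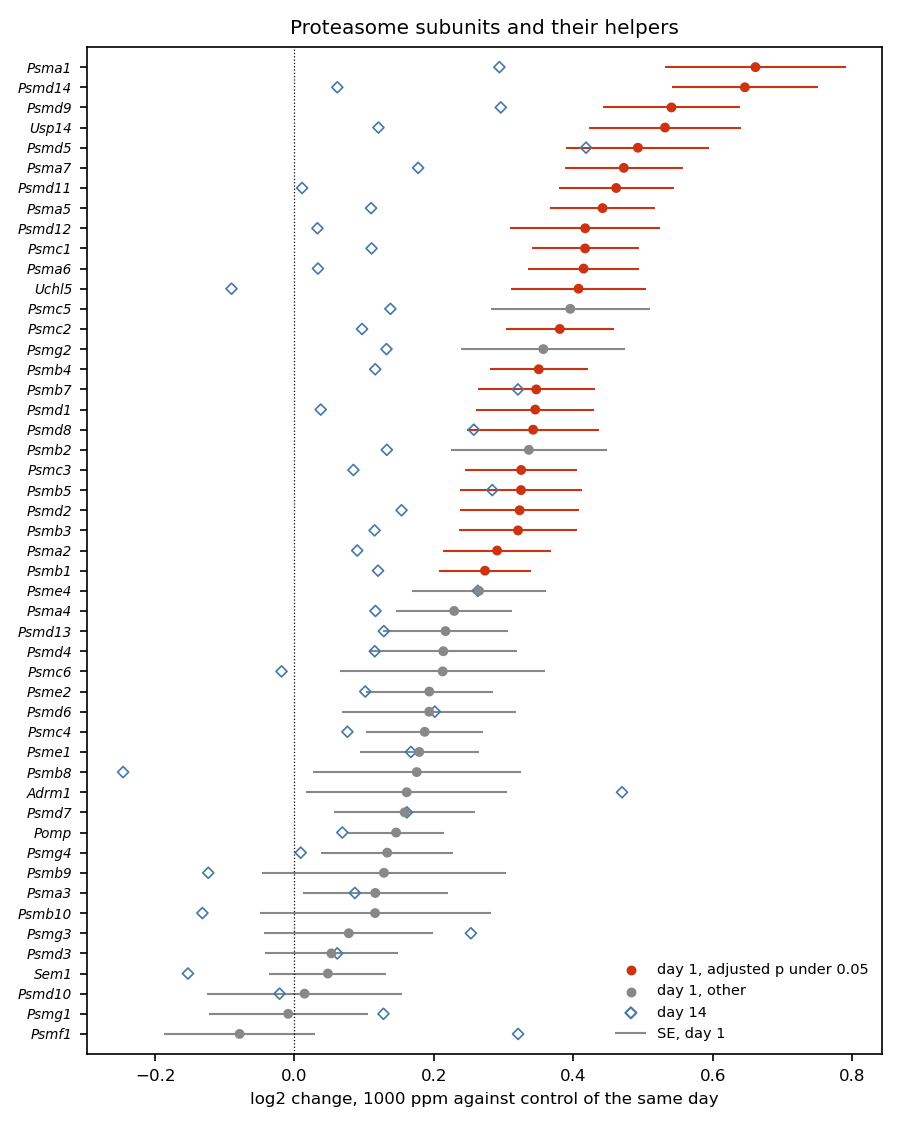
Log2 change of 49 proteasome genes at 1000 ppm against the control of the same day, with a dot and SE bar for day 1 (n = 3 against 3) and an open diamond for day 14. Red dots passed an adjusted p of 0.05, 47 of the dots lie above 0, and 42 of the 49 diamonds lie to the left of their dots.

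Cytosolic and mitochondrial chaperones moved with the proteasome in 6 of 43 cases, and the endoplasmic reticulum chaperones and unfolded protein response did not, with 0 of 73 called in either direction (median 0.01; limma, 7 at an unadjusted p under 0.05, and 0 after quantile normalization). Hspd1 and its lid Hspe1, which fold proteins in mitochondria, rose by 0.40 and 0.32 on the log2 scale, and Hsph1, a nucleotide exchange factor of the heat shock protein family, went from 2485, 2238 and 1747 to 3456, 2758 and 3343. Hspb8, Dnajb6 and Hsp90ab1 made up the rest. Of all genes 2.39% were higher, and 15.7% had an unadjusted limma p under 0.05. Without animal 3 only 1 of the 6 passed. The difference between the 2 chaperone lists was not tested.

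Lists of protein synthesis and nuclear transport were read next. All 40 cytosolic ribosomal protein genes tested had a change above 0, against 49.4% of all genes, with a median of 0.17 and 5 calls, Rpl3 among them (14651, 14846 and 12661 against 16930.1, 18194 and 19060.0). Without animal 5 none of the list passed, and the median of all probesets itself moved from -0.03 to 0.06 between the 2 scalings. Nuclear transport had 3 of 56 genes called, all higher: Ran, the small GTPase that gives traffic its direction (5259.8, 5768 and 5291 against 7601, 9471 and 7579.8), and the pore proteins Nup93 and Ndc1. Ribosome biogenesis had 2 of 97 (Nhp2 and Nop16), no more than the 2.39% of all genes that were higher, with 63 of 97 above 0 and neither called without animal 65 or 5, and translation factors 2 of 61 (Eif2s2 and Eef1b2), of which neither passed without animal 63, 65, 1 or 5. The median of the nuclear transport list was 0.18, or 0.05 with the run as a block.

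Genes of cell division rose, with large spread between animals. Pcna, the clamp that holds DNA polymerase on its template, went from 1838, 1802 and 2059 to 3333, 3948 and 2874 (log2 change 0.82 ± 0.11, adjusted p = 7.02e-06). Mcm7, part of the helicase that opens DNA, went from 588, 628 and 716 to 893, 1136 and 1079.8. Both held whichever array was left out. Of 35 DNA replication genes 6 rose and none fell (median 0.35): Pcna, Mcm7, Rfc2 (clamp loader), Prim1 (primase), Dut (dUTPase) and Rpa3 (single-strand binding protein). Of 57 genes of cyclins and mitosis 5 rose and none fell, while 49 had a change above 0 and the median was 0.52. Over all genes, 2.39% were higher and 49.4% had a change above 0.

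The mitotic genes that passed were Spc25 (kinetochore), Kif20b (motor of late division), Ncapd2 (condensin), Plk4 (centriole duplication) and Stmn1 (microtubule turnover). Spc25 had 168, 323 and 451 in the controls and 669, 1478 and 714 at 1000 ppm. Kif20b had 67.5, 151 and 213 against 267, 536 and 352. Ncapd2, the most even of them, had 112, 118 and 193 against 338, 437 and 380.3 and kept its call without any 1 array. In each of these genes control animal 1 or 3 was the lowest and treated animal 63 the highest. Outside the list, Pclaf, a partner of Pcna, showed the same spread (225, 447 and 587 against 893, 1704 and 888), as did Fam111a, a protease that binds Pcna (79.7, 147 and 187 against 310.3, 665 and 409). Members with wide spread missed the threshold: Mki67, the Ki-67 antigen, had 140, 295 and 429 against 365, 1053 and 657 (adjusted p = 0.0904), and Cdk1 had 237, 737 and 747 against 694, 1771 and 879 (adjusted p = 0.378). Without animal 63 the calls in these 2 lists fell to 2 and 1, and without animal 61 they were 6 and 9. With the run as a block 0 passed in either list, and the median of DNA replication went from 0.35 to 0.07 and that of cyclins and mitosis from 0.52 to 0.35. In bulk liver, more dividing cells and more RNA in each of them cannot be told apart.

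Some genes had no listed signal in any control and a signal in all 3 treated rats. There were 87 such probesets, and 33 of the opposite kind. The meaning of a missing value is not stated, so these carry no fold change and no test, and control animals 3 and 5 also listed fewer signals (14094 and 14842) than any of the treated animals (15162 to 15654). Of the 70 with 1 gene symbol, 12 belonged to the cell division lists, and 0 of 15 did so in the opposite set. Among all 10133 genes with a probeset that passed the signal filter, those lists held 48 (DNA replication) and 78 (cyclins and mitosis). The shares were not tested, and 15 is too few for a count of 0 to be compared. The 12 included Mcm3 (205, 338 and 258) and Mcm6 (538, 563 and 361) of the helicase. Also among the 12 were Cdt1 and Gins1 of replication licensing and start, and Kif22 and Dlgap5 of the spindle. Foxm1, a transcription factor of late cell cycle genes, was there too. At 1000 ppm on day 3, Mcm3 was listed in 0 of 3 animals, Mcm6, Cdt1, Gins1 and Foxm1 in 1, and Kif22 and Dlgap5 in 2. Day 3 controls had 0 of 3, or 1 of 3 for Foxm1 and Dlgap5. At 50 ppm on day 1, Mcm3 and Gins1 were listed in 3 of 3, Kif22 and Foxm1 in 2, and Mcm6, Cdt1 and Dlgap5 in 1. Tk1, thymidine kinase, was in this set with 507, 861 and 749, but another probeset of it was listed in both groups, at 471, 622 and 675 against 671, 1117 and 813 (adjusted p = 0.103), and Kif11 and Bub3 likewise had a second probeset listed in every animal.

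Gadd45b, a growth arrest and stress gene known in mouse liver as an early target of CAR, had signals of 570, 508 and 531 at 1000 ppm and no listed control signal. At 500 ppm on day 1 all 3 animals had a signal, and at 50 ppm none did. On day 3 and on day 14, 3 of 3 treated and 0 of 3 control animals had one. Gpx2, a glutathione peroxidase, showed the same listing on those days (158, 377 and 181 on day 1). Beside Gadd45b, the brightest probesets listed at 1000 ppm alone were 1 each of Tk1, Slc25a48, Mcm6 and Usp4, and the brightest listed in controls alone were 1 each of Mplkip, Lrp5, Dcaf15, Rcan3 and Abat. Several of these genes had another probeset with a signal in all 6 animals, so the genes themselves were measured in both groups: Slc25a48 (337, 317 and 254 against 200.2, 264 and 327), Usp4 (873, 838 and 939 against 801, 693 and 720), Lrp5 (524, 417 and 496 against 287, 269 and 335), Abat (3091, 3038 and 2956 against 2798, 2567 and 2776) and Mplkip, with 2 such probesets. None of these other probesets passed. Slc25a48 and Usp4 were listed in 3 of 3 and 2 of 3 controls of day 3, so for these probesets the blank on day 1 did not recur.

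**Figure D3:**
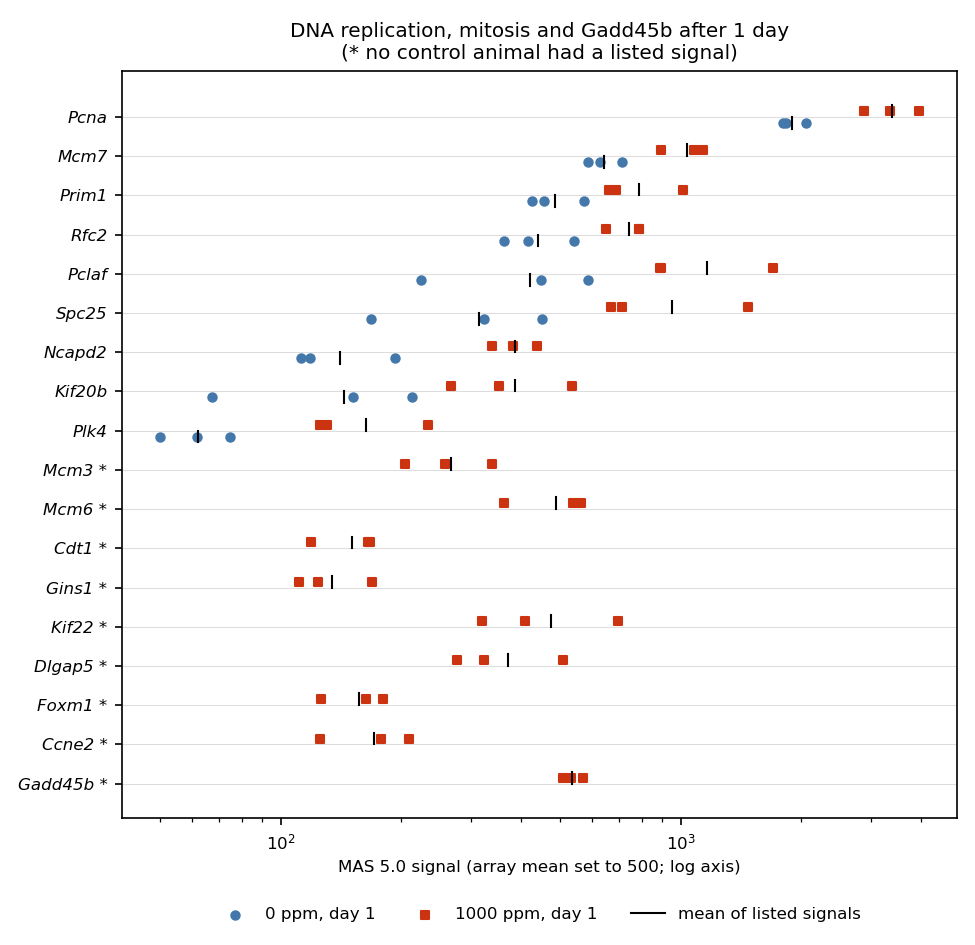
MAS 5.0 signals (log axis) of genes of DNA replication and mitosis and of Gadd45b, with a circle for each 0 ppm animal, a square for each 1000 ppm animal and a bar for the mean. The rows marked with a star have squares alone because no control animal had a listed signal, and in Spc25 and Pclaf treated animal 63 lies far to the right.

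Promoter sequence was read for the proteasome and cell division genes, which were among the lists with most members above 0. The windows hold 250 bases before and 50 after the start of transcription, from RefSeq on the GRCr8 build, and 20 of the 23 proteasome genes that rose had one. The letters TGACNNNGC, the core of the antioxidant response element read by NRF-type factors, were searched on both strands. They were found in 5 of 20 of these promoters (25%), in 10 of 45 of the proteasome genes tested (22.2%), in 11 of 49 promoters of genes that fell (22.4%), in 0 of 2 of the glutathione and NRF2 target genes that rose, in 14.9% of the promoters of all genes tested and in 12.2% of all 27457 promoters. The letters CCAAT, read by NF-Y, were found in 7 of 10 promoters of the cell division genes that rose (70%), against 38.9% of the genes tested and 37.7% of all. A direct repeat of the kind that CAR binds (AGTTCA or AGGTCA, any 4 bases, then AGTTCA) was in 0 of 17 promoters of drug metabolism genes that rose and in at most 0.0146% of all promoters. The amino acid response element TGATGCAA was in 1 of 173 promoters of genes that rose (0.578%), against 0.618% of the genes tested. These are matches of letters in a short window.

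The promoters of 2 proteasome genes with these letters and of 2 cell division genes with CCAAT are shown, on the strand of the gene, with each match on either strand in capitals. Psmd1 is the large scaffold of the cap (chr9:94157721-94158020, plus strand), Psmb5 a catalytic subunit of the core (chr15:32047330-32047629, minus strand), Mcm7 is at chr12:22163129-22163428 and Ncapd2 at chr4:159677889-159678188, both on the minus strand.
Psmd1: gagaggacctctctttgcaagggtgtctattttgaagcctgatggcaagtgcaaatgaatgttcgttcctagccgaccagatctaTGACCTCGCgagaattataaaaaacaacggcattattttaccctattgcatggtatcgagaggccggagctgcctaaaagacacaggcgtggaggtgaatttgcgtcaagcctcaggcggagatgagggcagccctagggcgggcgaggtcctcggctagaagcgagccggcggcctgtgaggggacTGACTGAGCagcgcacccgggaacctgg
Psmb5: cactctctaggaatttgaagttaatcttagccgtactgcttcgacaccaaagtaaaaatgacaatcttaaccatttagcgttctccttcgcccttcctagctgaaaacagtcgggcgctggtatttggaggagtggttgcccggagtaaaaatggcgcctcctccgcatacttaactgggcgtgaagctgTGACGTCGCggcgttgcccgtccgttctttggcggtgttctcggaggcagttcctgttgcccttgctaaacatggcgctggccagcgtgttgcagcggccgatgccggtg
Mcm7: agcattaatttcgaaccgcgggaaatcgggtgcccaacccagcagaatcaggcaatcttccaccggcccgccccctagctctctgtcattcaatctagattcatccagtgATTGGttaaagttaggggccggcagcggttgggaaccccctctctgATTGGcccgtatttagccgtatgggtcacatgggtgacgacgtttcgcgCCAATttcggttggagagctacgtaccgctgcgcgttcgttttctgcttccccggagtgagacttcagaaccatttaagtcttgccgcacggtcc
Ncapd2: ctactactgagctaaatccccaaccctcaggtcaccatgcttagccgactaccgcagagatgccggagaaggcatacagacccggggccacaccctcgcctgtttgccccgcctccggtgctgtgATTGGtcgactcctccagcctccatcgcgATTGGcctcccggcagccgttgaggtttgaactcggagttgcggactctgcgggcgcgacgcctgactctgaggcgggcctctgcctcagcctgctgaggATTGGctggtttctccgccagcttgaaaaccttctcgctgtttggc
Psmd1 rose from 1507, 1501 and 1619.9 to 1973, 1978 and 1926 in signal, and Psmb5 from 5732, 6000.4 and 5734 to 7102, 7450.4 and 7324. In both, the treated animals lay within a narrow band above the controls.

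Falls were fewer and led by unrelated genes. Ly75, an endocytic receptor best known from dendritic cells, had the largest, but its controls were at 1408, 385 and 229 and the first of them weighed heavily: without animal 1, or without animal 65, the call was lost. The treated animals had 134, 132 and 96.4. Usp2, a deubiquitinase with a daily rhythm in liver, went from 235, 236 and 239 to 58.2, 75.8 and 122. Nothing else fell in the list of circadian clock genes, whose median was -0.09 over 17 tested, with Por as the member that rose. Of all genes 0.76% were lower and 2.39% higher. The call of Usp2 was lost without any of 5 arrays, all but animal 65. Hes6, a transcriptional repressor, fell from 7965, 5284 and 6422 to 3525, 3329 and 3240.4, a call lost without animal 1, and Rprm, a cell cycle arrest gene, from 290.0, 286 and 382 to 172, 154 and 111, a call that held only without animal 61. Kalrn and Sez6, better known from neurons, were about 2-fold lower (2.04 and 1.94).

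Genes of glucose and nitrogen handling were among the falls. Ppp1r3b, which brings protein phosphatase to glycogen and so favours its storage, had 8062, 8431 and 9644 in the controls and 5566, 3149 and 3705 at 1000 ppm (log2 change -1.11 ± 0.22, adjusted p = 0.00221). Pc, pyruvate carboxylase, and Slc37a4, the glucose-6-phosphate carrier of the endoplasmic reticulum, fell 1.42-fold and 1.35-fold. These 3 of 47 genes of glycogen and glucose metabolism fell and none rose, with a median of -0.03, where 0.76% of all genes were lower. Only 1 of the 3 passed without animal 63, without animal 65 or without animal 1. Pck1, the gatekeeper of glucose synthesis, had 27467, 31414 and 32466 against 28100.3, 28535 and 31267. Glul, glutamine synthetase of the cells around the central vein, fell from 8295, 7219 and 6708 to a narrow 4188, 4106 and 4254 (-0.82 ± 0.15), and its other 2 probesets, at -0.97 and -0.88, passed too. Of 82 genes of amino acid breakdown, Glul, Gpt2 and Glud1 fell and Aass and Hibch rose, and the rises were no more frequent than the 2.39% of all genes. Without animal 63, 65 or 3 neither rise passed, and without animal 61, 63 or 3 only Glul was left of the falls.

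Lipid and sterol lists had few calls. Insig1 and Insig2, which hold back sterol synthesis, went in opposite directions: Insig1 from 14950.5, 10981 and 12558 down to 9896, 5677 and 5586, and Insig2 from 14558, 12391 and 10332 up to 18401, 17448 and 19327. Insig2 had a second probeset that rose as well (0.63), whereas the call of Insig1 was lost without any array but animal 61. None of 55 genes of fatty acid and triglyceride synthesis passed, in this limma fit or after quantile normalization, and 12 had an unadjusted p under 0.05 (15.7% of all genes did). Other settings gave calls, all lower: 2 with the run as a random block, 2 where all 6 arrays had a signal, 1 with an offset of 32, 2 without animal 61 and 1 without animal 3. Fasn, fatty acid synthase, had 10678, 5429 and 5842 against 5536, 4241 and 2725, and its regulator Srebf1 had 7645, 3569.6 and 4251 against 4048, 2712 and 2051, both with control animal 1 well above the other controls. The same animal stood out in Cyp7a1, the rate-limiting enzyme of bile acid synthesis, with 7311 beside 1580.2 and 2445, and treated signals of 1845, 1097 and 502 (adjusted p = 0.112). Hamp, the iron hormone hepcidin, was higher in all 3 treated rats (23856, 28846 and 29382 against 10149, 18275 and 14471) without passing (adjusted p = 0.0847), and 0 of 61 acute phase genes passed in limma. Before adjustment 7 of them had a p under 0.05 (15.7% of all genes did), and quantile normalization gave 2 calls, both lower. Of 46 immediate early genes 0 passed in limma, here or after quantile normalization, and 2 had a p under 0.05 before adjustment. Myc had 626 and 179 in 2 controls and 256, 259 and 329.9 in treated rats.

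**Figure D4:**
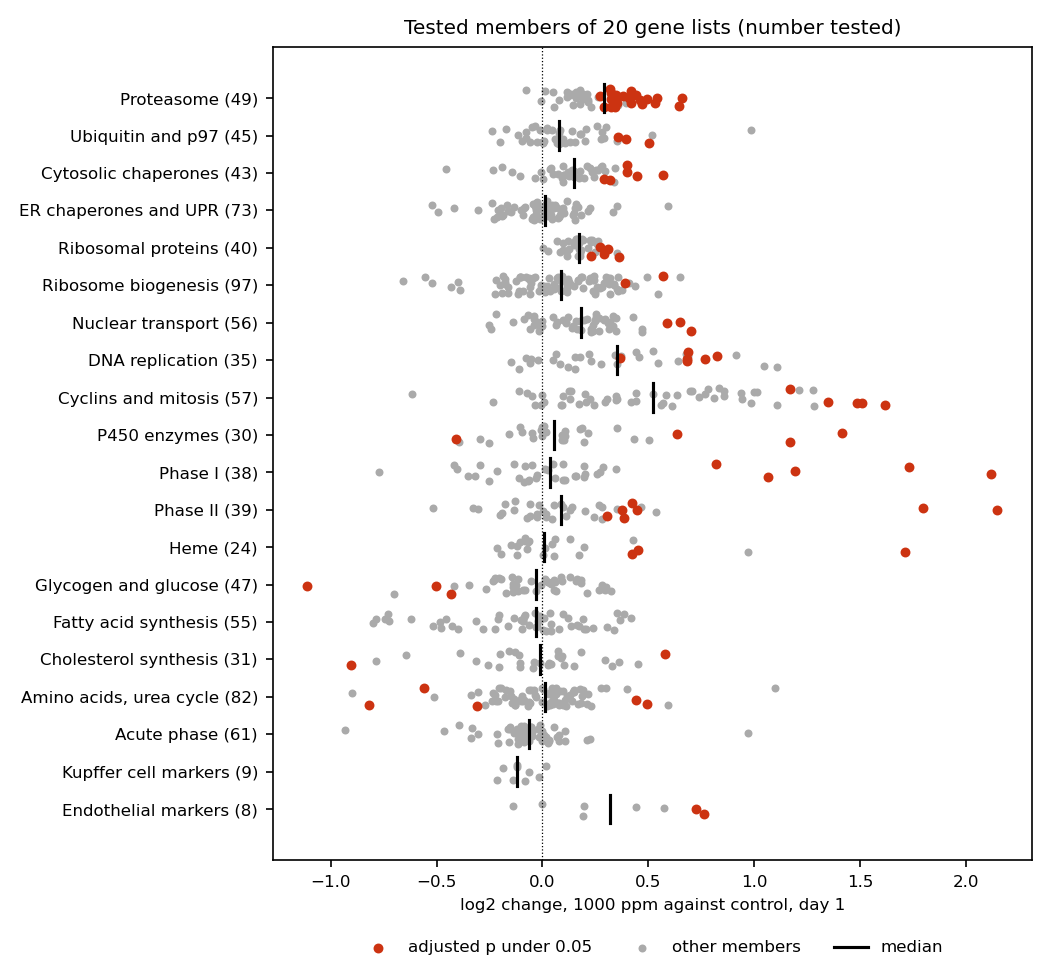
Log2 change on day 1 of every tested gene in 20 of the gene lists, with genes that passed an adjusted p of 0.05 in red and the list median as a bar. The proteasome, DNA replication and mitosis lists sit to the right of 0 as a body (medians 0.29, 0.35 and 0.52), whereas the drug metabolism lists have medians near 0 and a few members far to the right.

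Markers of other liver cells were read beside these results. Of 8 endothelial markers tested from a list of 12, Fcgr2b and Lyve1, both of sinusoidal cells, were higher: Fcgr2b with 1601, 894 and 1187 against 1953, 1985 and 2144, and Lyve1 with 2660.3, 1114 and 1442 against 3061, 2402 and 2626. Of all genes 2.39% were higher. The median log2 change of the 8 was 0.32, and the lowest was -0.14. A change above 0 was seen in 6 of the 8, against 49.4% of all genes. The summed signal of the 8 ran from 5854 to 9783 in controls and from 10188 to 10509 in treated rats, while Pecam1, found in all endothelium, had a change of 0.00. The groups overlapped for Lyve1. Without animal 3 neither gene passed. Of 9 Kupffer cell and macrophage markers none passed, with sums of 20797 to 31544 and 21222 to 26164, and none passed of 9 stellate cell, 4 lymphocyte, 3 bile duct, 3 blood cell or 1 neutrophil marker. The part of endothelial RNA in the other changes was not tested.

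At 500 ppm on day 1, against the same 3 controls, 140 of 13891 probesets passed (1.01%), and at 50 ppm 2 of 14051 (0.0142%, or 0.0118% of genes). These comparisons share their controls with the one at 1000 ppm, so their values are only set side by side. The Cyp2b probeset changed by 1.92, 2.80 and 2.65 on the log2 scale at 50, 500 and 1000 ppm, Ugt2b1 by 0.75, 1.92 and 2.15, Ces2c by 0.22, 1.27 and 1.73, and Ephx1 by 0.29, 1.06 and 1.20. The proteasome median was 0.04, 0.23 and 0.29, and that of cyclins and mitosis 0.21, 0.38 and 0.52. Cebpa changed by -0.24, -0.91 and -0.90. Ppp1r3b had 0.18 and -0.21 at the 2 lower doses and -1.11 at 1000 ppm.

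The test of the difference between 1000 and 500 ppm, which needs no control, found 1 of 14184 probesets (0.00705%, or 0.0117% of genes) and 0 after quantile normalization. It belonged to Vma21, an assembly factor of the proton pump of lysosomes, which was named after its values were seen. Its signals were 264, 197 and 228 at 1000 ppm, 430, 436 and 463 at 500 ppm and 232, 235 and 268 in the controls, so that the middle dose stood apart (log2 difference -0.96 ± 0.15, adjusted p = 0.00197). The difference was -0.14 ± 0.14 for the Cyp2b probeset, 0.24 ± 0.15 for Ugt2b1 and 0.08 ± 0.10 for Psmd14. For Hes6 it was -0.96 ± 0.21 and for Ppp1r3b -0.90 ± 0.22, large in size but not past the threshold over all probesets (adjusted p = 0.165 and 0.202). Before adjustment, 1104 of the 14184 probesets had a limma p under 0.05, against 2159 of 13940 for 1000 ppm against control. These 1104 are not counted as differences between the doses.

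The later days used other animals and other controls. At 1000 ppm, on the third day 4.33% of probesets passed, on day 7 2.03% and on day 14 3.78%, and of genes 5.01%, 2.38% and 3.93%. Of the 257 probesets higher on day 1, 115 of 257 were also called higher at 1000 ppm on day 3 (44.8%, against 2.36% of all probesets), 70 of 256 on day 7 (27.3%, against 1.41%) and 65 of 251 on day 14 (25.9%, against 2.24%). Of the 123 lower ones, 23 of 118 were called lower on day 3 (19.5%, against 2.10%) and 11 of 119 on day 14 (9.24%, against 1.60%). A probeset was called in the opposite direction in 1 case on day 3, 0 on day 7 and 2 on day 14. Because probesets were chosen for passing on day 1, their median change there (0.51 for the higher ones) is not comparable with those of the later days (0.35, 0.24 and 0.15).

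A test of the difference itself, the response on a later day minus that on day 1, passed for 15 of 13302 probesets on day 3 (0.113%), 12 of 13511 on day 7 (0.0888%) and 179 of 12989 on day 14 (1.38%). Of genes, 0.111%, 0.109% and 1.45% passed. Ces2c was further up on every later day, by 1.80 ± 0.29 on day 3 and 1.77 ± 0.29 on day 14 beyond its day 1 change. Aldh1a1 was further up by 2.73 ± 0.48 on day 14 and Ephx1 by 0.77 ± 0.15. Lpl, lipoprotein lipase, did not pass on day 1, with 174 and 235 in 2 controls and 190.2, 229 and 283 in treated rats, and its response was 2.64 ± 0.45 larger on day 7. Day 1 rises that were smaller on day 14 were those of Pclaf (-1.90 ± 0.47), Cyp3a9 (-1.52 ± 0.31), Mcm7 (-0.80 ± 0.18), Pcna (-0.79 ± 0.15) and Psmd14 (-0.58 ± 0.15). Many named genes were chosen by their change on day 1, and the same arrays enter the difference, which favours a smaller later response. The fall of Cebpa on day 1 was smaller by 0.97 ± 0.23 on day 14, when its change was 0.07. Fcgr2b, the endothelial marker, was smaller by 1.01 ± 0.23 on day 14. All 3 treated arrays of day 14 were in run 1, and with the run as a block 1 probeset passed on day 14, 2 on day 7 and 0 on day 3. Quantile normalization gave 1142 probesets on day 14, 1108 of them smaller than on day 1, and moved the median difference from 0.03 to -0.26.

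**Figure D5:**
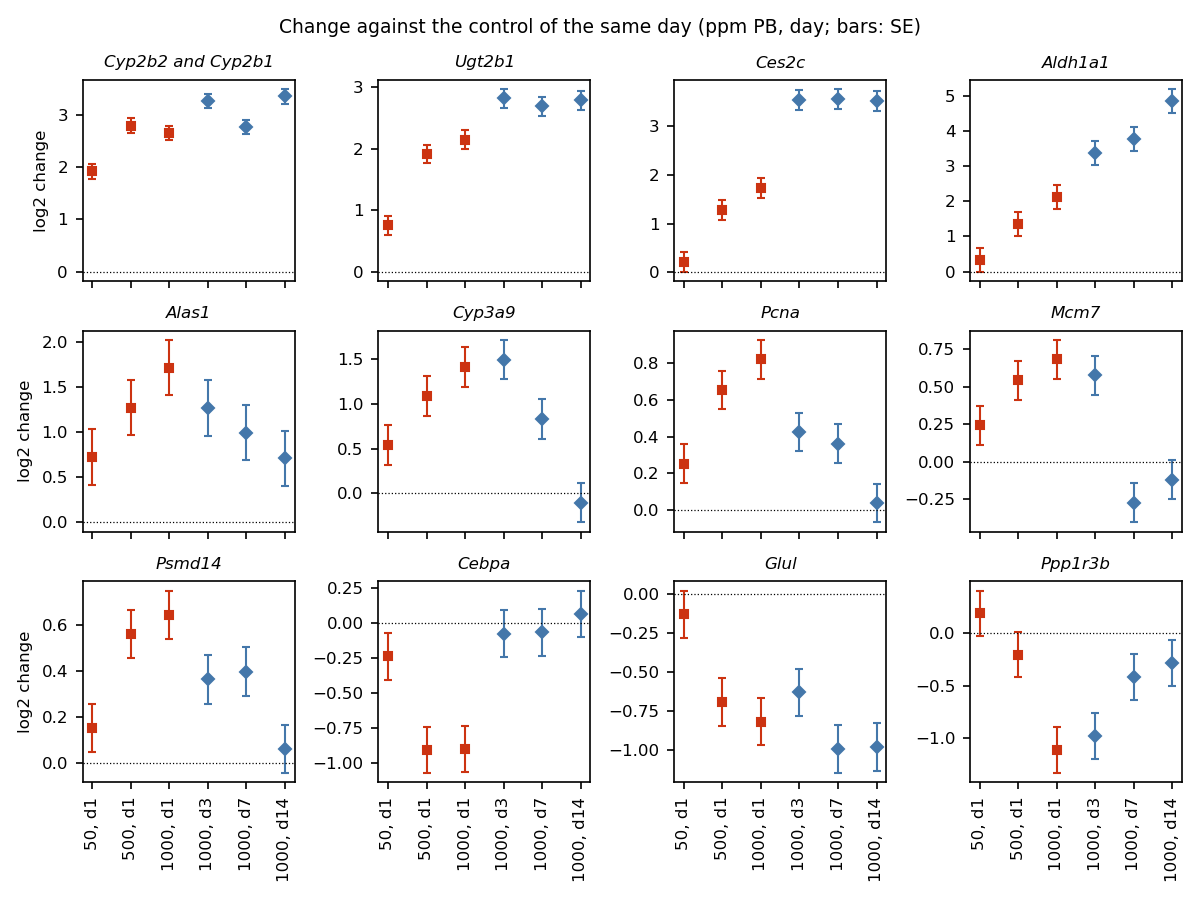
Log2 change against the control of the same day for 12 probesets, with SE bars (3 animals a group), at 50, 500 and 1000 ppm on day 1 (red squares) and at 1000 ppm on days 3, 7 and 14 (blue diamonds). Ces2c and Aldh1a1 climb from the third square to the diamonds, whereas Pcna, Mcm7 and Psmd14 are highest at 1000 ppm on day 1 and lie near 0.04, -0.12 and 0.06 on day 14.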

How the data were processed

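Signals of 48 rat liver arrays (Affymetrix RG-230 2.0, 1 animal each) were used. Per the labels and the methods, the authors hybridised biotin-labelled cRNA, computed MAS 5.0 intensity values per probeset and set each array's mean to 500. The deposited intensity table holds 31099 probesets, and a signal without a value was treated as missing. A second deposited table, with ratios of 776 selected probesets to their median, was not used. After 57 control probesets were left out, the 18073 that reached a signal of 90 on 3 or more arrays stayed in, and a probeset was tested where both groups had at least 2 listed signals. Log2 signals were fitted with limma 3.58.1 (R 4.3.3; lmFit and eBayes) with a mean for each of the 16 dose and day groups, 3 arrays each, with no further term. Tests were two-sided, with Benjamini-Hochberg adjustment over all probesets of a comparison and 0.05 as threshold. They measure the spread between animals. The number of arrays limits the precision.

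Gene symbols came from the platform annotation: 20826 probesets had 1 symbol, 436 several and 9780 none. A gene was read from its brightest probeset. Named genes were the 14 largest rises and the 14 largest falls among calls without overlap, up to 4 called members of each list (or up to 2 uncalled ones where none passed), a set fixed by name, the 5 largest differences between days or doses, and the 5 brightest genes listed in 1 group alone. Promoter genes shown, and other members given as examples, were chosen after their values were seen. The gene lists and the members of the comparison were chosen with earlier results of these data known. Gene list counts were read without a set test. Animal numbers placed the arrays, and 7 titles of the series disagree with them. The same replicate numbers did not pair the animals: deviations of same-numbered arrays correlated at 0.08, -0.11 and 0.08. The alternatives were other scalings, filters and offsets, a block for the run (fixed, or random), the 6 arrays alone, a replicate block, and leaving out each array or the arrays of unclear label. The script was tested on simulated data.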

Additional observations from a re-analysis of the deposited data

Results flagged for a closer look

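The results given here are those in which the response at 1000 ppm differed between day 1 and a later day by the test of the difference itself (limma, adjusted p under 0.05). All are log2 responses of the later day minus day 1, with the SE, and each group had 3 animals. Many of the genes were named for their change on day 1, and the same arrays enter the difference, which favours a smaller later response.

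Genes whose response was larger later were Ces2c, with 1.80 ± 0.29 on day 3, 1.82 ± 0.29 on day 7 and 1.77 ± 0.29 on day 14, Aldh1a1 with 2.73 ± 0.48 on day 14, and Ephx1 with 0.77 ± 0.15 on day 14. Lpl differed by 2.64 ± 0.45 on day 7 and 2.41 ± 0.45 on day 14. Cebpa differed by 0.97 ± 0.23 on day 14, where its day 1 response of -0.90 had become 0.07.

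Some genes of cell division had smaller responses on day 7 or day 14. Mcm7 differed by -0.96 ± 0.18 on day 7 and -0.80 ± 0.18 on day 14, Pcna by -0.79 ± 0.15 on day 14 and Pclaf by -1.90 ± 0.47 on day 14. The median response of the cyclins and mitosis list was 0.52 on day 1 and 0.58 on day 3. It was -0.13 on day 7 and -0.07 on day 14. For DNA replication the medians were 0.35, 0.31, 0.15 and 0.01 on the same days. The differences between these medians were not tested.

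Single genes of protein handling and synthesis also had smaller responses. Hsph1 differed by -1.15 ± 0.22 on day 3, and on day 14 Psmd14 differed by -0.58 ± 0.15, Dnajb6 by -0.57 ± 0.14, Eef1b2 by -0.48 ± 0.11 and Rps3 by -0.42 ± 0.11.

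Of the others, Insig2 differed by -0.87 ± 0.18 on day 7, Rab6a, a GTPase of Golgi traffic, by -0.54 ± 0.11 on day 7 and -0.62 ± 0.11 on day 14, Cyp3a9 by -1.52 ± 0.31 on day 14 and Fcgr2b by -1.01 ± 0.23 on day 14. The treated arrays of day 14 were all in run 1 and those of day 1 in runs 2 and 3. With the run as a block, 0 probesets passed for day 3 (939 at an unadjusted p under 0.05), 2 for day 7 and 1 for day 14.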

How the results depend on the processing

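The 380 probesets called on day 1 became 0 with the replicate block (6 arrays, limma, 1619 at an unadjusted p under 0.05), 6 with the run as a fixed block and 5 from the 6 arrays alone. The 100 calls in the gene lists became 0, 3 and 3 in the same order. With the run block the variance of the comparison was 3.98 times as large, and the 6 arrays alone have fewer degrees of freedom. Leaving out 1 array gave 184 to 332 probesets and 49 to 90 list calls. The other settings gave 364 to 429 probesets. Of 89 named genes called, 31 kept the call without any 1 array. The replicate block ended all 89, the run block and the 6 arrays alone 85 each, quantile normalization 14, the arrays of clear label alone 7, median scaling 3 and an offset of 32 on the log2 scale 1. The cause was not tested.

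For the differences between responses, the run block gave 0 probesets for day 3 (from 15; 939 at an unadjusted p under 0.05), 2 for day 7 (from 12) and 1 for day 14 (from 179), and quantile normalization gave 1142 for day 14. The single probeset that differed between 1000 and 500 ppm was lost with quantile normalization (0; 941 unadjusted) and the run block (0; 1022 unadjusted). Uncalled genes changed sign: with the run block Hnf4a was at 0.17, Pck1 at 0.39 and Lpl at -0.018, and without 1 array Apob ran from -0.46 to 0.10, Epcam from -0.050 to 0.25, Cd74 from -0.39 to 0.10, Ptprc from -0.46 to 0.061, Nr0b2 from -0.27 to 0.46 and Cpt1a from -0.020 to 0.47. Genes without a listed signal in a group could not be tested, among the fixed names Abcc3, Gadd45b, G6pc, Per2 and Dbp.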

Other observations

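Some lists that the report does not describe held single calls. Casp4, an inflammatory caspase, rose from 926, 669.9 and 626 to 1641, 1344 and 1514 (log2 change 1.04 ± 0.16), the 1 call among 42 genes of p53 targets and cell death. Acad9, an acyl-CoA dehydrogenase that also helps assemble respiratory complex I, rose by 0.48 ± 0.09, the 1 call among 55 genes of fatty acid oxidation and PPARalpha targets. Both held when any 1 array was left out. Of 82 genes of the respiratory chain and citric acid cycle 2 rose (Ndufab1 and Cyc1) and 1 fell (Pc), and of 47 genes of membrane traffic Rab6a rose and Kdelr1 fell. Of all genes 2.39% were higher and 0.76% lower. Neither respiratory rise passed without animal 61, 63, 65 or 5. Rab6a held its call only without animal 63, and its second probeset changed by 0.04.

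Among genes that mark the zones of the lobule, 1 of 19 perivenous genes rose (Aldh1a1) and 1 fell (Glul), with a median of -0.16. The shares over all genes were 2.39% and 0.76%. Of 18 periportal genes 0 passed in limma, here or after quantile normalization, and 2 had a p under 0.05 before adjustment. Of 12 genes of thyroid hormone handling 0 passed, with 4 at an unadjusted p under 0.05 and 1, higher, after quantile normalization. Of 19 bile acid genes 0 passed, with 2 at an unadjusted p under 0.05 and 0 after quantile normalization. Over all genes, 15.7% had an unadjusted limma p under 0.05.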
